A study of Mus musculus with 6 samples.

Results

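The set described here holds 36 mouse genes for the uptake of dietary fat, its re-esterification, its storage in lipid droplets and its packing into chylomicrons. They were listed by symbol and found in a table of 47643 genes, where all 36 were present. Messenger RNA of the intestine was compared between 2 groups of 3 libraries, from male C57BL/6 mice aged 7 to 8 weeks. Both groups were given tamoxifen and kept for 2 weeks on a 60% high-fat diet. The controls carried the genotype Mycfl/fl, a floxed Myc gene. The other group carried MycΔIE, ERT2 and is called Myc-deleted here. The labels state neither the promoter that drives the recombinase nor whether the controls carry one, so loss of Myc and recombinase activity cannot be told apart in any difference below. Nothing in the labels says from which segment the tissue came.

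Enterocytes take up fatty acids, monoacylglycerol and cholesterol from the gut lumen and bind the fatty acids to cytosolic carrier proteins. At the endoplasmic reticulum the fatty acids are activated to acyl-CoA and joined again to triglyceride. The triglyceride is either held in cytosolic droplets or loaded onto apolipoprotein B by the microsomal triglyceride transfer protein, coated with further apolipoproteins and secreted as chylomicrons into lymph. This work falls mainly to the proximal small intestine, and the ileum takes up bile acids.

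In the Myc-deleted mice, 6 of the 35 tested genes of the set rose, 1 fell and 28 did not pass the test. The risers were Fabp2, which binds fatty acids in the enterocyte (1.86-fold), Acsl5, an acyl-CoA synthetase (1.42-fold), the apolipoprotein genes Apoa1 (1.40-fold) and Apoc2 (2.99-fold), Creb3l3, a transcription factor of lipid genes (1.52-fold), and Cidec, a lipid droplet protein gene (1.42-fold). The faller was Mgll, which encodes monoacylglycerol lipase (1.56-fold lower). A gene was called at an adjusted p under 0.05 in the quasi-likelihood F-test of edgeR with p adjusted by Benjamini-Hochberg across the 12720 genes tested. Of all tested genes 4.22% were called higher and 3.73% lower, against 17.1% and 2.86% of the tested set. The set was chosen with earlier results of these data known. An excess over all tested genes, here and in the shares below, therefore cannot be read as an independent result. The set was also more abundant, with a mean log2 CPM (defined below) of 7.69 to 8.21 a library, against 4.06 to 4.09 for all genes. The shares were not matched for level. The fitted log2 fold change was positive for 30 of the 35 genes, with a median of 0.21, and for 49.8% of all tested genes, whose median was -0.00212. In either direction 7 of the 35 genes were called, where the share over all tested genes was 7.95%. At an unadjusted p under 0.05 the counts were 17 genes of the set with a positive and 1 with a negative fold change, against 11.7% and 10.4% of all tested genes. Every Myc-deleted library stood above every control for 12 of the 35 genes, and below every control for 1, where 14.0% and 13.7% of all tested genes were so separated. In bulk tissue, fewer cells of a type and less RNA per cell cannot be told apart.

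The count of risers depended on single libraries. Leaving out control library 2 gave 1 riser, leaving out Myc-deleted library 2 gave 3 and Myc-deleted library 3 gave 4, and there were 5, 7 and 8 without control library 1, control library 3 and Myc-deleted library 1. No gene of the set was called lower in any of these 6 runs. The log2 fold change of Mgll stayed at -0.65 to -0.62 in them, and only its call was lost.

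**Figure D1:**
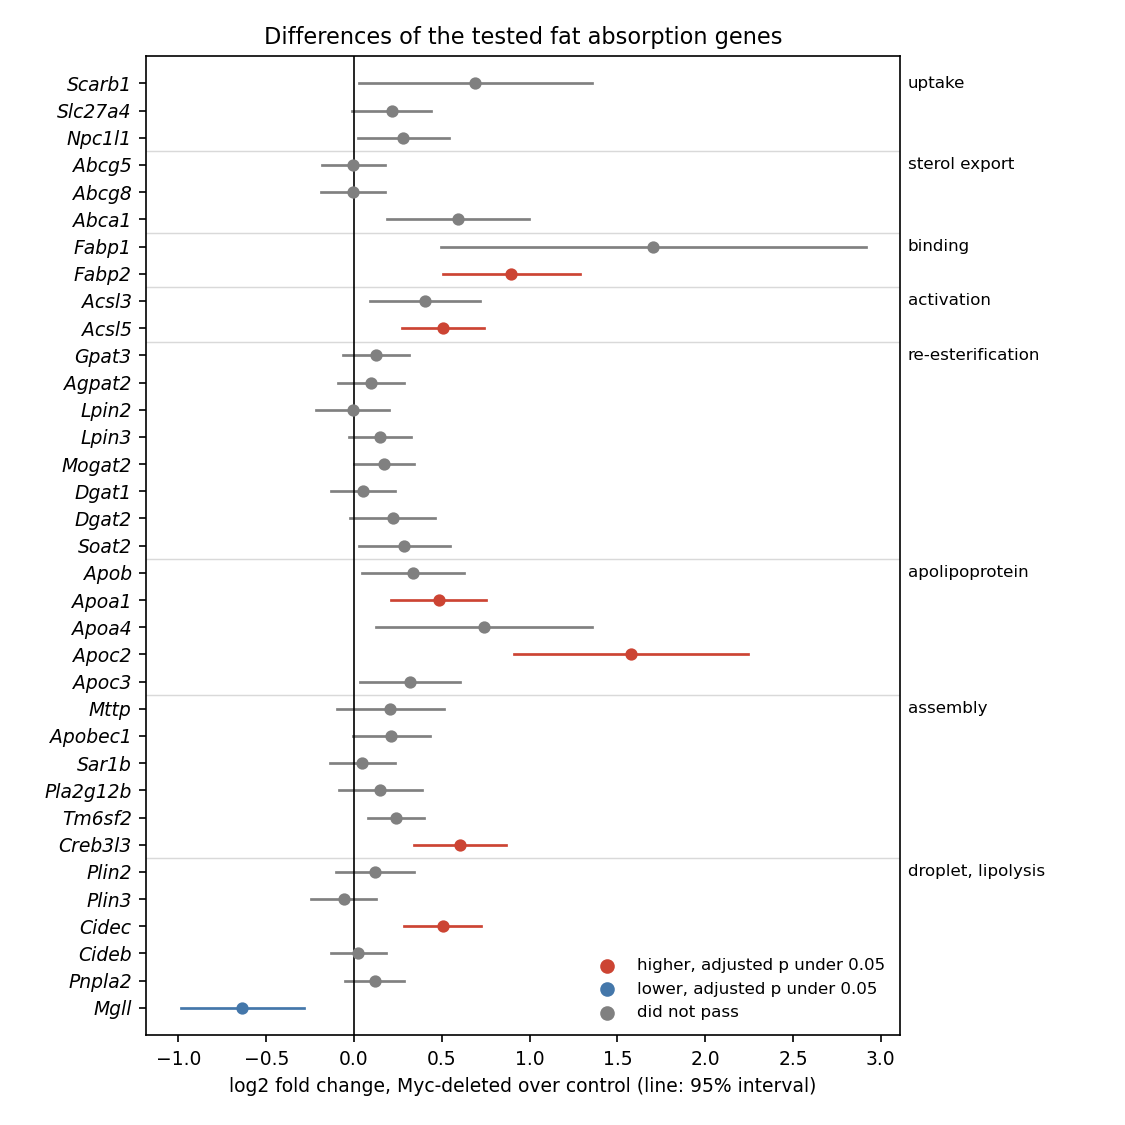
Log2 fold change of Myc-deleted over control mice for the 35 tested genes (points) with 95% intervals of the edgeR fit (lines), ordered by role in fat absorption. The 6 red genes were called higher, Mgll in blue was called lower, and the 28 grey genes did not pass; 30 of the 35 points lie to the right of 0.

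The libraries held 9956938 to 11328693 expected counts, and 3 counts equalled 0.259 to 0.306 CPM. CPM is the count relative to the library size as scaled by TMM, and values of a group are listed below in the order of libraries 1, 2 and 3. Myc itself had 59, 70 and 59 counts in the controls against 36, 47 and 63 in the Myc-deleted libraries. The difference for Myc missed the threshold (log2 fold change -0.41 ± 0.22 SE, edgeR adjusted p = 0.318), and Myc-deleted library 3, at 5.81 CPM, lay just under the lowest control at 5.86 CPM, so Myc expression gives no check of that library's label. Gene-level counts do not show whether the floxed exons were lost. The extraction protocol names liver, while the other labels name intestine. Alb, the albumin gene and among the most abundant transcripts of liver, stood at 2.61 ± 0.667 CPM (SD, n = 3) in the controls, against 0.582 ± 0.433 CPM in the Myc-deleted libraries. Fabp6, the bile acid binding protein of the ileum, stood at 11004 ± 1462 CPM (SD, n = 3) in the controls, while Pdx1, a duodenal factor, had at most 1 count in any library. Other markers of the proximal small intestine were abundant in the controls, with 908 CPM for Ckmt1 and 448 CPM for Rbp2. Of the colon markers, Car4 stood at 214 CPM and Slc26a3 at 141 CPM there, and Aqp8 and Hoxb13 at 0. The segment was not tested.

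Promoter sequence is shown for the risers with the largest called fold change, Apoc2 and Fabp2, and for Mgll, the single faller. Each is the 250 bases before the RefSeq transcription start on the gene's strand, outside the annotated exons of that gene. Capitals mark matches to the motifs searched on both strands, which were chosen with the results known.
Apoc2 upstream region, chr7:19677942-19678191, GRCm38.p6, minus strand: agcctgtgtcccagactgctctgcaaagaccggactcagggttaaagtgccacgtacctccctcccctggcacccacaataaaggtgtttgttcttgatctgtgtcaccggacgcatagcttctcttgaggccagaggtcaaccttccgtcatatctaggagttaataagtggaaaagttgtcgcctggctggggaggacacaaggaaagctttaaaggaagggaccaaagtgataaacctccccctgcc
Fabp2 upstream region, chr3:122894822-122895071, GRCm38.p6, plus strand: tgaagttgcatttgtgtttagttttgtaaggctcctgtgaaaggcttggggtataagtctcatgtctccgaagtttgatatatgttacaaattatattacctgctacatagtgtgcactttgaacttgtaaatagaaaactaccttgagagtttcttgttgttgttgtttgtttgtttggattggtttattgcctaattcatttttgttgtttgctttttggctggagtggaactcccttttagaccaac
Mgll upstream region, chr6:88724162-88724411, GRCm38.p6, plus strand: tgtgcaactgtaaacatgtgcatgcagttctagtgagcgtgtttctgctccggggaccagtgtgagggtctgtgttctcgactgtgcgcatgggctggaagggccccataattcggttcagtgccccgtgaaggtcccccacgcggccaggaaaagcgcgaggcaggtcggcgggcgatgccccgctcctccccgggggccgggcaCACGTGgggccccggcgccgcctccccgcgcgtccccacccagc
RefSeq windows were at hand for 29 of the 36 genes. The E-box CACGTG, bound by Myc and Max, occurred in the windows of Mgll, Abca1 and Lpin2 and in 6.02% of all windows of this length. In Mgll it lies 44 to 39 bases before the start. A second Mgll window lacked the E-box, as did the other windows of Lpin2. Abca1 and Lpin2, which also hold it, had log2 fold changes of 0.59 and -0.01 and did not pass. It was in 3 of the 36 windows of the set and in no window of the 6 risers. At a share of 6.02% over all windows, so few windows give no contrast between risers and faller. The GATA motif AGATAA was found in Abcg5, Abcg8 and Creb3l3 and in 9.99% of all windows. A second window of Abcg8 and of Creb3l3 lacked it. Of the HNF4 motif, the form CAAAGTTCA was found in Apoa4 and Apobec1 (0.335% of all windows) and the form CAAAGTCCA in none of the set (0.384%). The windows of Abcg5 and Abcg8 overlap, since the genes lie head to head. A match of letters does not show binding, and no match says nothing about the factor.

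Per kilobase of exonic length, the control level in the set spanned from 0.188 CPM for Scarb1 to 7688 CPM for Apoa1. Fabp2 (4931 CPM per kilobase) and Apoa4 (1116) followed Apoa1, and no other gene exceeded 275, the level of Slc27a4. The summed level of the 36 genes, not scaled for length, was 30286, 26219 and 31745 CPM in the controls, against 38124, 46027 and 39976 CPM in the Myc-deleted libraries, so the groups did not overlap. Fabp2 made up 34.3% of the difference between the group means of this sum and Apoa1 31.6%. The other 34 genes together also stood higher in each Myc-deleted library (17519 to 21309 CPM) than in each control (13428 to 16649 CPM). Most of that remainder came from Apoa4 (11.4% of the difference of the full sum), Apob (8.15%) and Acsl5 (3.64%), of which only Acsl5 passed. The sum thus reflects a few abundant genes.

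**Figure D2:**
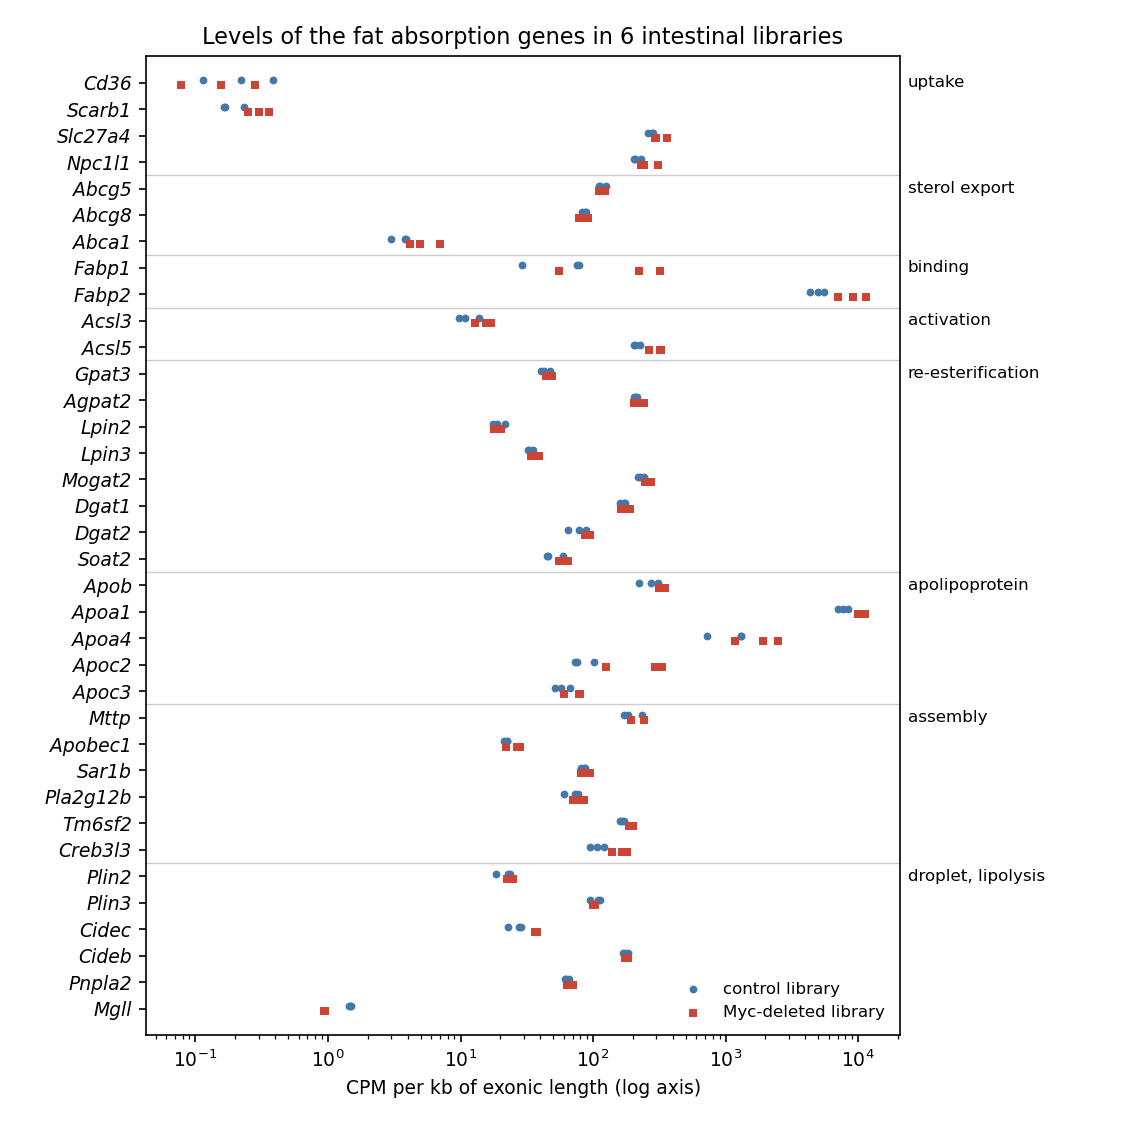
Level of the 36 genes in each of the 3 control (blue circles) and 3 Myc-deleted libraries (red squares), in CPM per kilobase of exonic length on a log axis, by role. Apoa1, Fabp2 and Apoa4 stand above the rest and Cd36 and Scarb1 are the lowest.

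Among the uptake transporters, none passed. Npc1l1, which takes up cholesterol at the brush border, stood at 931, 905 and 1025 CPM in the controls, against 1369.5, 1086 and 1023 CPM in the Myc-deleted libraries. The control and Myc-deleted libraries overlapped, with Myc-deleted library 1 highest (log2 fold change 0.28 ± 0.12 SE, edgeR adjusted p = 0.190). Slc27a4, a fatty acid transport protein and acyl-CoA synthetase of the enterocyte, stood at 1238, 1148 and 1251 CPM in the controls, against 1300.5, 1599 and 1321 CPM in the Myc-deleted libraries. Each Myc-deleted library was above each control, yet the difference did not pass (log2 fold change 0.21 ± 0.10 SE, edgeR adjusted p = 0.252). Scarb1, the receptor SR-BI for lipoproteins and lipids, was measured at 1.99, 1.38 and 1.43 CPM in the controls, against 2.10, 3.06 and 2.58 CPM in the Myc-deleted libraries, also without overlap and without a call (log2 fold change 0.69 ± 0.30 SE, edgeR adjusted p = 0.206). Cd36, the fatty acid translocase, had 3 to 16 counts a library and was not tested.

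Of the sterol exporters, Abcg5 and Abcg8 form a pair that pumps plant sterols and cholesterol back into the lumen. Their log2 fold changes were both near 0. Abcg5 stood at 300.4, 341 and 304 CPM in the controls, against 312, 331 and 299 CPM in the Myc-deleted libraries (95% interval of the log2 fold change -0.18 to 0.18). For Abcg8 the values were 325, 329 and 307 CPM in the controls, against 319, 346 and 294 CPM in the Myc-deleted libraries (95% interval -0.19 to 0.18). The exons of Abcg5 and Abcg8 overlap on opposite strands, and the strand setting of the counting is not given, so reads there could be shared. Abca1, which loads cholesterol onto apolipoprotein A-I at the basolateral side, stood at 31.1, 39.8 and 39.9 CPM in the controls, against 43.0, 73.1 and 50.9 CPM in the Myc-deleted libraries. All Myc-deleted libraries were above all controls, and Myc-deleted library 2 was highest. The difference did not pass (log2 fold change 0.59 ± 0.18 SE, edgeR adjusted p = 0.0819), but did without Myc-deleted library 1 (adjusted p = 0.0262), with DESeq2 (0.0199), when low-count genes were kept (0.0113) and under a replicate block (0.0207). Without Myc-deleted library 2 its log2 fold change was 0.34.

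Of the 2 cytosolic carriers, Fabp2 rose and Fabp1 did not pass. Fabp2 (chromosome 3, 122895072 to 122899506, GRCm38) was measured at 5315, 4153 and 4808 CPM in the controls, against 6795, 11013 and 8768 CPM in the Myc-deleted libraries. Its lowest Myc-deleted library, number 1, stood above its highest control. The level went from 4759 ± 583 to 8859 ± 2110.1 CPM (SD, n = 3 each), with a log2 fold change of 0.90 ± 0.18 SE (edgeR adjusted p = 0.0132). Without control library 2 its log2 fold change was 0.80 and the adjusted p 0.0693, and in the other 5 runs that left out a library the call held. Fabp1, the liver-type carrier and a gene of the proximal intestine, stood at 16.0, 43.6 and 41.9 CPM in the controls, against 30.5, 178 and 124 CPM in the Myc-deleted libraries. Myc-deleted libraries 2 and 3 exceeded all controls, and library 1 lay within the control range. Among the 35 tested genes Fabp1 had the largest fitted change and the largest SE (log2 fold change 1.71 ± 0.54 SE, edgeR adjusted p = 0.0918). It was 2.15 without Myc-deleted library 1 (adjusted p = 0.00635) and 1.18 without Myc-deleted library 2. Fabp1 also passed when low-count genes were kept (adjusted p = 0.00296) and under a replicate block (0.00228).

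Acyl-CoA synthetases activate fatty acids for re-esterification. Acsl5 (chromosome 19, 55251938 to 55297720), the more abundant one here, was found at 1016, 984 and 1108 CPM in the controls, against 1274, 1577 and 1562 CPM in the Myc-deleted libraries. All 3 Myc-deleted libraries were above the controls, with library 1 nearest to them. The rise from 1036 ± 64.2 to 1471 ± 170.4 CPM (SD, n = 3 each) passed (log2 fold change 0.51 ± 0.10 SE, edgeR adjusted p = 0.0168). The call of Acsl5 was lost when control library 1 or 2 was left out (adjusted p = 0.0644 and 0.0895) and when Myc-deleted library 2 or 3 was (adjusted p = 0.0709 and 0.0541). Acsl3, which acts at nascent lipid droplets, was measured at 59.9, 46.8 and 42.3 CPM in the controls, against 55.8, 73.6 and 67.6 CPM in the Myc-deleted libraries. The groups overlapped and the test was not passed (log2 fold change 0.40 ± 0.14 SE, edgeR adjusted p = 0.121; 0.0451 without control library 1). Acsl3 shares exonic sequence on the same strand with Utp14b, so its estimated counts are less certain.

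None of the 8 enzymes that rebuild glycerolipids and cholesteryl esters passed, and their log2 fold changes ran from -0.01 to 0.29. Mogat2, which joins a fatty acid to monoacylglycerol in the main intestinal route, stood at 403, 416 and 441 CPM in the controls, against 456, 498 and 464 CPM in the Myc-deleted libraries. Those libraries did not overlap between the groups, but the difference was small (log2 fold change 0.17 ± 0.08 SE, edgeR adjusted p = 0.225). Dgat1, which adds the last fatty acid of triglyceride, was nearly level at 492, 531 and 523 CPM in the controls, against 529, 576 and 496 CPM in the Myc-deleted libraries (95% interval of the log2 fold change -0.13 to 0.23). Agpat2, an acyltransferase of the glycerol phosphate route, was similar at 455, 431 and 447 and 435, 519.8 and 470.4 CPM (95% interval -0.09 to 0.28). Dgat2, the other triglyceride-forming acyltransferase, had a log2 fold change of 0.22 ± 0.11 SE. Soat2, which esterifies cholesterol, had 0.29 ± 0.12 SE and passed without control library 3 (adjusted p = 0.0425). The acyltransferase gene Gpat3 (0.12) and the phosphatidate phosphatase genes Lpin2 (-0.01) and Lpin3 (0.15) completed the group, all with overlapping libraries.

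Of the 5 apolipoprotein genes, Apoa1 and Apoc2 rose and the other 3 had positive fold changes that did not pass. Apoc2 (chromosome 7, 19671579 to 19677941) encodes the cofactor of lipoprotein lipase. It was measured at 82.8, 59.8 and 61.6 CPM in the controls, against 102, 270.1 and 237 CPM in the Myc-deleted libraries. Myc-deleted libraries 2 and 3 were far above the controls, and library 1 was closer to them, though still above the highest. The level went from 68.1 ± 12.8 to 203 ± 88.9 CPM (SD, n = 3 each) (log2 fold change 1.58 ± 0.30 SE, edgeR adjusted p = 0.0110). Apoc2 passed in 5 of the 6 runs that left out a library, and had a log2 fold change of 1.48 and an adjusted p of 0.0670 without control library 2. Gm44805, a gene model that shares exonic sequence with Apoc2 on the same strand, had at most 7.90 estimated counts a library.

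Apoa1 (chromosome 9, 46228580 to 46230466), the main protein of high-density lipoprotein and also made for chylomicrons, was the most abundant gene of the set per length. It stood at 9582, 8638 and 10288 CPM in the controls, against 13810, 13705 and 12325 CPM in the Myc-deleted libraries. No Myc-deleted library reached down to the controls (log2 fold change 0.48 ± 0.12 SE, edgeR adjusted p = 0.0386). Its call held without control library 3 and was lost in the other 5 runs, with adjusted p values of 0.0537 without Myc-deleted library 3 to 0.139 without control library 2. Apoa4, a chylomicron apolipoprotein that responds to fat intake, lies next to Apoa1 and Apoc3 on chromosome 9. It was found at 2367, 1318 and 2390.3 CPM in the controls, against 2154, 4499.8 and 3500.5 CPM in the Myc-deleted libraries. Control library 2 was lowest, Myc-deleted library 2 highest, and Myc-deleted library 1 lay within the control range. The difference did not pass (log2 fold change 0.74 ± 0.28 SE, edgeR adjusted p = 0.146), and passed without Myc-deleted library 1 (0.98, adjusted p = 0.0381) and when low-count genes were kept (0.0183). Without control library 2 the log2 fold change of Apoa4 was 0.50, and without Myc-deleted library 2 it was 0.47.

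Apob, the structural protein of the chylomicron, was measured at 3788, 3083 and 4271 CPM in the controls, against 4778, 4893 and 4394 CPM in the Myc-deleted libraries. The lowest Myc-deleted library stood just above the highest control. The call was not reached with edgeR (log2 fold change 0.34 ± 0.13 SE, edgeR adjusted p = 0.157) and was with DESeq2 (adjusted p = 0.0400). Without control library 2 the log2 fold change of Apob was 0.21. Apoc3, an inhibitor of lipoprotein lipase, ranged from 52.0 to 67.6 CPM in the controls and from 61.5 to 81.2 CPM in the Myc-deleted libraries, which overlapped (log2 fold change 0.32 ± 0.13 SE, edgeR adjusted p = 0.175).

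**Figure D3:**
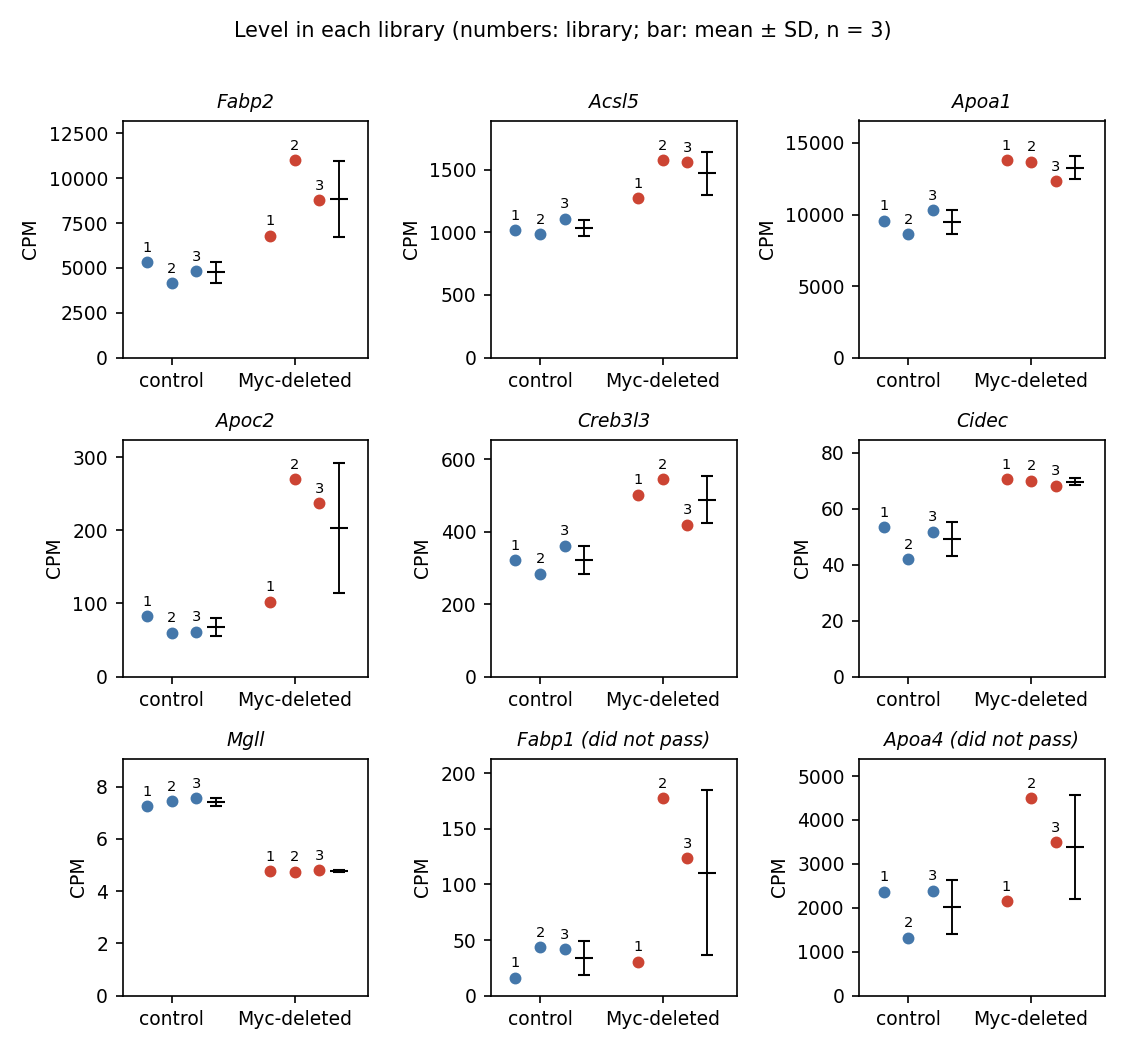
CPM in each library for the 7 called genes and for Fabp1 and Apoa4, which did not pass (points, numbered by library; black bars, mean ± SD, n = 3). For Fabp1, Apoc2, Fabp2 and Apoa4, Myc-deleted library 1 lies nearest to the controls or among them, while for Apoa1, Cidec and Mgll it does not stand apart from the other Myc-deleted libraries.

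Among the genes of chylomicron assembly and export, Creb3l3 rose. Creb3l3 (chromosome 10, 81084324 to 81098874) encodes a membrane-bound transcription factor known to act on apolipoprotein genes. It stood at 322, 284 and 362 CPM in the controls, against 502, 546 and 419.7 CPM in the Myc-deleted libraries. The groups did not overlap, and Myc-deleted library 3 was the one nearest to the controls. The level went from 322 ± 38.9 to 489 ± 63.9 CPM (SD, n = 3 each) (log2 fold change 0.60 ± 0.12 SE, edgeR adjusted p = 0.0130), with an adjusted p of 0.0739 once control library 2 was left out and 0.0553 once Myc-deleted library 2 was. Tm6sf2, a protein of the endoplasmic reticulum needed for lipoprotein lipidation, was measured at 305, 313 and 324 CPM in the controls, against 355, 382 and 374 CPM in the Myc-deleted libraries. Its groups were apart with little spread, and the difference did not pass (log2 fold change 0.24 ± 0.07 SE, edgeR adjusted p = 0.0738), except with DESeq2 (adjusted p = 0.0366).

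Mttp, the transfer protein that loads triglyceride onto apolipoprotein B, was found at 1064, 1131 and 1458 CPM in the controls, against 1204, 1514 and 1496 CPM in the Myc-deleted libraries. Control library 3 stood above Myc-deleted library 1 and near libraries 2 and 3, and the test was not passed (log2 fold change 0.21 ± 0.14 SE, edgeR adjusted p = 0.421, 95% interval -0.10 to 0.51). Apobec1, which edits the Apob mRNA to the short intestinal form, had a log2 fold change of 0.21 ± 0.10 SE. Pla2g12b, a factor of lipoprotein secretion without phospholipase activity, had 0.15 ± 0.11 SE. Sar1b, the GTPase of the vesicles that carry chylomicrons out of the endoplasmic reticulum, had 0.05 ± 0.08 SE (95% interval -0.14 to 0.23). The libraries of these 3 genes overlapped between the groups.

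In the droplet and lipolysis group, Cidec rose and Mgll fell. Cidec (chromosome 6, 113424634 to 113435760), which promotes the growth of lipid droplets, stood at 53.4, 42.0 and 51.7 CPM in the controls, against 70.5, 69.9 and 68.2 CPM in the Myc-deleted libraries. The Myc-deleted libraries were close together and all above the controls, of which number 2 was lowest. The rise from 49.0 ± 6.13 to 69.6 ± 1.23 CPM (SD, n = 3 each) passed (log2 fold change 0.51 ± 0.10 SE, edgeR adjusted p = 0.0126) and kept its call in all 6 runs that left out a library (adjusted p = 0.0221 to 0.0485), but not with control library 2 and Myc-deleted library 1 both left out (0.0671). Cidec is also a gene of adipocytes. Of 8 adipocyte markers, Adipoq, Plin1, Lep and Retn were at 0 counts in all 6 libraries, and the 7 markers other than Lipe summed to 0.0929 to 0.613 CPM over the 6 libraries. Lipe, a hormone-sensitive lipase gene that other cells also express, made up nearly all of the list's sum of 73.5 to 98.9 CPM in the controls, against 75.1 to 102 CPM in the Myc-deleted libraries.

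Mgll (chromosome 6, 88724412 to 88828360), which splits monoacylglycerol into fatty acid and glycerol, was a gene of low level. It had 73, 86 and 74 counts in the controls, against 52, 51 and 52 in the Myc-deleted libraries, or 7.25, 7.43 and 7.56 CPM against 4.76, 4.74 and 4.80 CPM. Every Myc-deleted library was below every control, and the libraries of a group hardly differed. The fall passed (log2 fold change -0.64 ± 0.16 SE, edgeR adjusted p = 0.0359), but not with DESeq2 (adjusted p = 0.134), under a replicate block (0.0692) or in any run that left out a library (0.0744 to 0.108).

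The remaining 4 genes of this group did not pass. Plin3, a droplet coat protein, was measured at 416, 360.1 and 426 CPM in the controls, against 381, 385 and 389 CPM in the Myc-deleted libraries, with Myc-deleted values inside the range of the controls (95% interval of the log2 fold change -0.24 to 0.13). Cideb, a relative of Cidec with a part in lipoprotein lipidation, was level at 260.2, 251 and 275 CPM in the controls, against 269.9, 271 and 259 CPM in the Myc-deleted libraries (95% interval -0.13 to 0.18). Pnpla2, the adipose triglyceride lipase, had a log2 fold change of 0.12 ± 0.07 SE. For Plin2, another coat protein, it was 0.12 ± 0.10 SE, and the libraries of both genes overlapped.

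Some libraries were often at the ends of the range. Control library 2 was the lowest of all 6 libraries for 19 of the 35 tested genes, and Myc-deleted library 2 was the highest for 21. Such positions were not counted over all tested genes, so these counts cannot be read as particular to the set. In control library 2 the smooth muscle gene Myh11 stood at 25.8 CPM, against 4.67 and 5.01 CPM in the other controls and 2.23 to 4.57 CPM in the Myc-deleted mice. The 6 smooth muscle and fibroblast markers summed to 95.3 CPM in control library 2 and to 41.0 to 61.1 CPM in the other 5 libraries. The muscle genes Acta2 (17.7 CPM) and Des (17.9 CPM) were also highest in control library 2. Col1a1, Col3a1 and Pdgfra were not, with 10.9, 19.6 and 3.28 CPM there against 12.6, 26.0 and 3.68 CPM in control library 1. None of the 6 smooth muscle and fibroblast markers passed between the groups, and their part in the results was not tested. Without control library 2 the median log2 fold change of the set was 0.17.

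Markers of the proximal small intestine differed in both directions. Of 10 such markers 7 were tested, of which Gata4, Gsta1, Lct and Rbp2 rose, Slc40a1 fell, and Adh6a and Ckmt1 did not pass. Slc40a1, the iron exporter ferroportin, stood at 59.2, 84.1 and 111 CPM in the controls, against 14.1, 8.27 and 8.21 CPM in the Myc-deleted libraries (log2 fold change -3.05 ± 0.26 SE, edgeR adjusted p = 0.000397). This fall had the lowest adjusted p of the list. Adh6a, an alcohol dehydrogenase, had a log2 fold change of -0.91 ± 0.25 SE (edgeR adjusted p = 0.0576), and Ckmt1, a creatine kinase, had 0.10 ± 0.08 SE. Lct, which encodes lactase, was measured at 1.59, 1.04 and 3.78 CPM in the controls, against 6.77, 30.4 and 18.9 CPM in the Myc-deleted libraries (log2 fold change 3.15 ± 0.57 SE, edgeR adjusted p = 0.00915), and Rbp2, a retinol carrier, at 466, 352 and 526 and 531, 862 and 789 CPM (log2 fold change 0.70 ± 0.19 SE, edgeR adjusted p = 0.0499). Rbp2 kept its call without Myc-deleted library 1 and lost it in the other 5 runs, and Lct lost its call without control library 2. Without 1 library the adjusted p of Lct ranged from 0.00138 to 0.0546 and that of Rbp2 from 0.00866 to 0.185. The call of Slc40a1 held in 6 of these 6 runs and that of Gsta1 in 6. Myc-deleted library 1 was the lowest of its group for 19 of the 35 tested genes of the set and the highest for 6, positions not counted over all tested genes. Among the tested proximal markers it was lowest for Lct, Rbp2, Gsta1, Gata4 and Ckmt1 and highest for Slc40a1 and Adh6a. The 10 proximal markers summed to 1425 to 1660 CPM in the controls, against 1575 to 2092 CPM in the Myc-deleted libraries, ranges that overlap. Ckmt1 made up 908 CPM and Rbp2 448 CPM of the control mean of 1537 CPM, so the sum says little about the other proximal markers. No marker of the proximal list was at 0 in all libraries. Among the 10 ileal markers, Fgf15, a hormone induced by bile acids, rose from 117 ± 35.8 to 453 ± 141 CPM (SD, n = 3 each) (log2 fold change 1.95 ± 0.26 SE, edgeR adjusted p = 0.00236). Gcg, the proglucagon gene, rose 1.96-fold (log2 fold change 0.97 ± 0.13 SE, edgeR adjusted p = 0.00243), and Clec2h fell (log2 fold change -0.49 ± 0.12 SE, edgeR adjusted p = 0.0349). The ileal sums were 19920 to 22584 CPM in the controls, against 20574 to 21840 CPM in the Myc-deleted libraries, of which Fabp6 alone made up 11004 CPM of a control mean of 21086 CPM, and no ileal marker was at 0. The part of either list in the differences of the set was not tested.

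**Figure D4:**
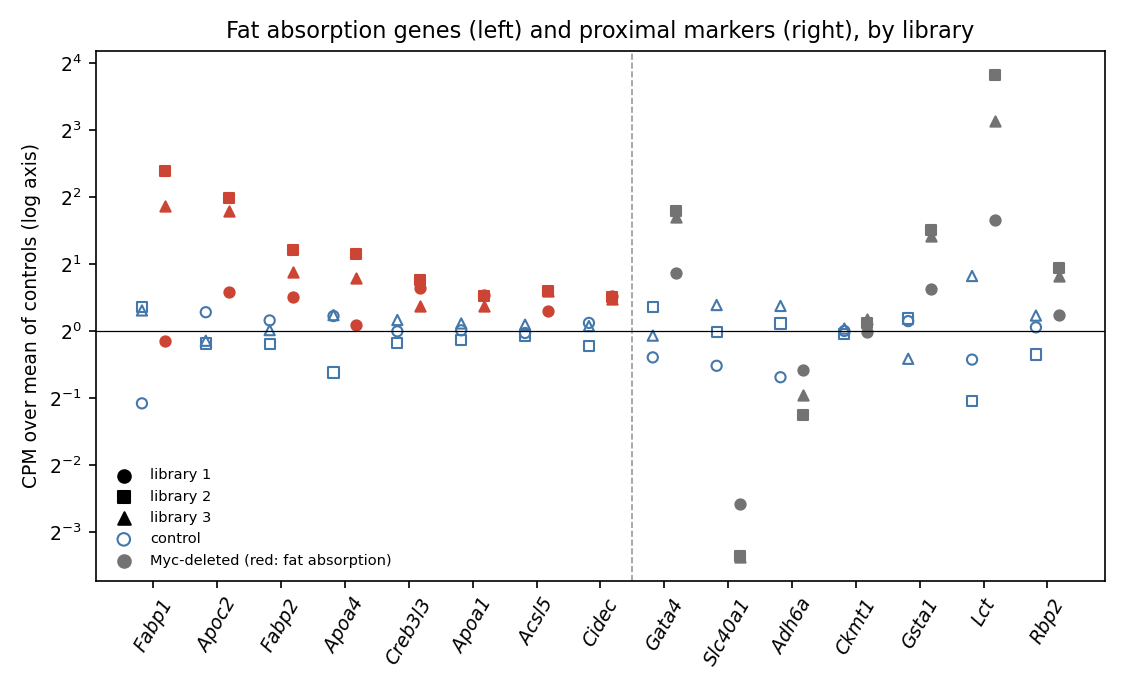
CPM of 8 fat absorption genes (left of the dashed line) and of the 7 tested markers of the proximal small intestine (right), each divided by the mean of its 3 controls, on a log axis. Symbols give the library number, open blue for controls and filled for Myc-deleted; Myc-deleted library 1 (filled circle) lies below libraries 2 and 3 for Fabp1, Apoc2, Fabp2 and Apoa4 and for Gata4, Gsta1, Lct and Rbp2, and above them for Slc40a1 and Adh6a.

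Of the 10 enterocyte markers, Lct and Rbp2 rose, none fell and none was at 0 in all libraries. Their sums overlapped between the groups, at 28042 to 32494 CPM in the controls, against 28018 to 31132 CPM in the Myc-deleted libraries. Anpep alone made up 15151 CPM of the control mean of 29607 CPM. No marker passed among the 7 of macrophages and dendritic cells (109 to 125 CPM in the controls, against 98.8 to 104 CPM in the Myc-deleted libraries) or the 7 of endothelium and lymphatics (15.2 to 18.9 CPM in the controls, against 14.9 to 19.9 CPM in the Myc-deleted libraries), cells that also express Cd36 or Abca1. None of those markers was at 0 in all libraries, and Gpihbp1 of the endothelial list was not tested. The macrophage and dendritic sums did not overlap between the groups, and the endothelial and lymphatic sums did. No goblet, Paneth, tuft, crypt stem or lymphocyte marker passed. The crypt stem marker Lgr5 (4 to 10 counts a library) and the tuft markers Il25 and Gfi1b were not tested. Without a call, the crypt stem markers Olfm4, Smoc2 and Mki67 stood lower in every Myc-deleted library than in every control (edgeR adjusted p = 0.0738, 0.0783 and 0.0826). Their log2 fold changes were -0.94, -0.90 and -0.39, while Ascl2 had 0.34 and Axin2 was level. The median log2 fold change of the Paneth markers was 0.44, and Ang4 alone among them was negative. Among the 7 enteroendocrine markers Chgb and Sst rose. The enteroendocrine list summed to 153 to 163 CPM in the controls, against 180 to 234 CPM in the Myc-deleted libraries, without overlap. Chga and Cck stood higher in every Myc-deleted library without a call, while Sct and Neurod1 had negative log2 fold changes. Of 7 colon markers, Car4 fell 2.65-fold (edgeR adjusted p = 0.000850), and Aqp8 and Hoxb13 were at 0. Of 7 hepatocyte markers, Alb and Tat fell (log2 fold change -2.15 ± 0.52 SE and -1.46 ± 0.34 SE, edgeR adjusted p = 0.0326 and 0.0276). The hepatocyte list summed to 29.5 to 47.0 CPM in the controls, against 8.17 to 20.1 CPM in the Myc-deleted libraries, without overlap. Tat alone made up 32.2 CPM of the control mean of 38.0 CPM. Ttr, Serpina1a and Apoh had higher means in the Myc-deleted libraries, and Fgb and Cyp2e1 lower ones, all at low levels without a call. Of these, Serpina1a, Fgb and Cyp2e1 were not tested. Of 7 pancreatic acinar markers, Pnlip, Cela2a, Cpa1, Prss2 and Amy2b were at 0 and Cela1 rose 2.14-fold (edgeR adjusted p = 0.00550), with sums of 7.46 to 10.9 CPM in the controls, against 14.5 to 17.4 CPM in the Myc-deleted libraries, also without overlap. Over the runs that left out a library, the highest adjusted p was 0.0106 for Fgf15, 0.0169 for Gcg, 0.112 for Clec2h, 0.00625 for Car4, 0.130 for Alb, 0.0926 for Tat, 0.0278 for Cela1, 0.105 for Chgb and 0.0298 for Sst. The part of these markers in the differences of the set was not tested.

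Of 91 other genes of fat handling, 90 were in the table and 74 were tested. Among these, 7 rose and 4 fell (9.46% and 5.41%, against 4.22% and 3.73% of all tested genes), with a median log2 fold change of 0.03. This list too was chosen with earlier results known, so its shares cannot be read as an independent result. Lipa, the lysosomal acid lipase, stood at 54.0, 51.0 and 53.4 CPM in the controls, against 75.0, 81.4 and 69.0 CPM in the Myc-deleted libraries (log2 fold change 0.51 ± 0.08 SE, edgeR adjusted p = 0.00609). The groups were apart, and the call of Lipa held in all 6 runs that left out a library. Ces1f, a carboxylesterase, was found at 51.9, 63.5 and 49.6 CPM in the controls, against 70.3, 112 and 101 CPM in the Myc-deleted libraries (log2 fold change 0.78 ± 0.16 SE, edgeR adjusted p = 0.0180). Bscl2, which encodes the droplet biogenesis protein seipin (0.45 ± 0.10 SE), Vldlr, a lipoprotein receptor gene of low level (1.13 ± 0.26 SE), and Sec22b, a vesicle fusion protein gene (0.42 ± 0.10 SE), also rose.

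Among the transcription factors of the list, Gata4 and Gata6 rose and Ppard fell. Gata4, which holds the identity of the proximal intestine, was measured at 3.18, 5.36 and 3.98 CPM in the controls, against 7.59, 14.5 and 13.6 CPM in the Myc-deleted libraries. Its Myc-deleted libraries all exceeded the controls (log2 fold change 1.50 ± 0.27 SE, edgeR adjusted p = 0.00973), and the call held in all 6 runs that left out a library. Gata6, its relative, also rose (log2 fold change 0.34 ± 0.09 SE, edgeR adjusted p = 0.0425). Ppard, a fatty acid receptor, fell, from 207 ± 23.4 to 149.6 ± 16.1 CPM (SD, n = 3 each) (log2 fold change -0.47 ± 0.11 SE, edgeR adjusted p = 0.0240). The other fallers were Lclat1, an acyltransferase (-0.40 ± 0.09 SE), Dbi, the acyl-CoA binding protein (-0.31 ± 0.07 SE), and Got2, an aminotransferase also described at the plasma membrane (-0.37 ± 0.09 SE). Apart from Lipa and Gata4, each of these 11 calls was lost in at least 4 of the 6 runs that left out a library, with a highest adjusted p of 0.0700 for Ces1f, 0.0879 for Ppard and 0.188 for Gata6. Leaving out a library gave 3 to 6 risers and 0 to 3 fallers in this list.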

How the data were processed

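Polyadenylated RNA was sequenced from stranded libraries, per the labels' protocols. The values are expected counts per gene as deposited by the authors, unscaled. The submitters' processing notes name cutadapt, STAR, Picard, RSEM and mm10; their versions, the annotation and the strand setting were not given in the sources used here. Symbols, coordinates and exonic lengths came from GENCODE M21 (GRCm38), matching 99.1% of identifiers.

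After rounding, expected counts were tested by edgeR 4.0.16 in R 4.3.3 (filterByExpr, minimum count 10, minimum total 15, TMM, quasi-likelihood F-test, adjusted p under 0.05), a procedure tested on simulated data. SE was taken as |log2 fold change| divided by the root of F. No label says that libraries came from separate mice, so p-values measure the spread between these samples. Counts and floors cover counting error only.

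Members and lists were chosen with earlier results of these data known. Per-library values are given for called members, the most abundant members of each role and members whose groups did not overlap. For the other pathway list the rule named 8 called genes with the lowest p; Dbi, Got2 and Gata6 were named after their values were seen. Results were recomputed with upper-quartile or RLE scaling, with limma 3.58.1 voom, DESeq2 1.42.0, no low-count filter, a filter of 1 CPM in 3 libraries, the replicate number as a block, and each library left out. A run without control library 2 and Myc-deleted library 1 was added after seeing the data.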

Additional observations from a re-analysis of the deposited data

How the results depend on the processing

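The counts for the set were 6 higher and 1 lower with RLE and upper-quartile scaling, limma voom and a filter of 1 CPM in 3 libraries. Risers numbered 9 with DESeq2 and without a low-count filter. Fallers numbered 0 with DESeq2. Leaving out 1 library gave 1 to 8 risers and 0 to 0 fallers in the set, 3 to 6 and 0 to 3 in the other pathway list, and 229 to 503 and 233 to 447 over all genes (537 and 474 with all libraries). Fewer samples enter these runs. With control library 2 and Myc-deleted library 1 both left out, an alternative chosen after seeing the data, 5 genes of the set rose and 0 fell. There 3 of the 7 original calls held (Fabp2, Acsl5 and Apoc2), Fabp1 and Apoa4 passed, 3 other pathway genes rose, and 277 of all genes were higher and 241 lower.

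With the replicate number as a block, 8 genes of the set rose and 0 fell. The labels give no pairing, and the deviations of same-numbered libraries correlated at 0.0189 to 0.0524. Each library correlated best with its own number, but these correlations were small and do not establish a pairing.

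Signs turned for 6 of the 28 genes that did not pass and for none of the 7 called. These were Cideb with upper-quartile scaling (-0.0149), and with the 2 libraries left out Abcg5 (0.0562), Abcg8 (0.014) and Cideb (-0.0188). Over the runs without 1 library the log2 fold change spanned -0.0511 to 0.0455 for Abcg5, -0.0722 to 0.0477 for Abcg8, -0.0742 to 0.0789 for Lpin2, -0.0152 to 0.0966 for Dgat1, -0.0283 to 0.0969 for Sar1b and -0.0154 to 0.0605 for Cideb. The causes were not tested. In 21 of the 28 no alternative gave a call. At this depth Cd36 could not be tested and Scarb1 and Mgll rest on few counts.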
